A study of Homo sapiens with 6 samples.

Results

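The 9 genes ACTA2, TAGLN, CNN1, CNN2, MYL9, TPM1, TPM2, CALD1 and VCL encode proteins of the contractile actin cytoskeleton. They form a list set by name, as contractile genes known to be regulated by SRF and its MRTF cofactors. No measured value is part of that rule, but the list was drawn up with earlier results of these data known. All 9 were found among the 19792 genes listed by symbol. The data come from BT-549, an established human line of triple-negative breast cancer, transduced with a WDR5 shRNA under a doxycycline-inducible promoter and selected with puromycin. Of 6 RNA-seq libraries, 3 came from cells given 0.1% DMSO as vehicle and 3 from cells given doxycycline (DOX) at 500 ng/ml, and both groups carried the same shRNA. No library with a control shRNA is among the 6, so DOX itself and silencing of WDR5 cannot be told apart. Treatment lasted 7 days by the supplement's legend for this RNA-seq, and the labels do not say whether the cells are 1 clone or a pool.

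The value analysed was the mean normalized count, which is the authors' mean over all 6 libraries after division by size factors. It is a level in the mixture of both conditions, with no SD and no n, and the depth of the libraries is unknown. The table holds the contrast of DOX with vehicle only as the authors' own fold changes and p-values, which were not used here. No difference between DOX and vehicle is therefore given, and no test was run. A mean over 6 libraries does set upper bounds. Since no count is negative, the mean of either group of 3 can be at most 2 times the mean of all 6, and no library can exceed it by more than 6 times.

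Smooth muscle type contraction rests on filaments of actin and myosin II. Tropomyosin and caldesmon lie along the actin filament, calponin and transgelin bind and crosslink it, and vinculin ties it to the membrane at focal adhesions. The genes are best known from smooth muscle and myofibroblasts, but mesenchymal tumour cells also use many of them in stress fibres. When monomeric actin is depleted, MRTF proteins enter the nucleus and activate these genes together with SRF, which binds a DNA element known as the CArG box.

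Of the 9 genes, 8 reached a mean normalized count of 100 (88.9%), compared with 54.6% of all listed genes. The same 8 were above 500, a level that 38.7% of all listed genes reached. The median of the 9 genes was 4512, whereas that of all listed genes was 187. CNN1 was the exception, with a mean normalized count of 37.2. The genes together held 0.203% of the sum of all mean normalized counts, and TPM2 alone made up 34.4% of their part.

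**Figure D1:**
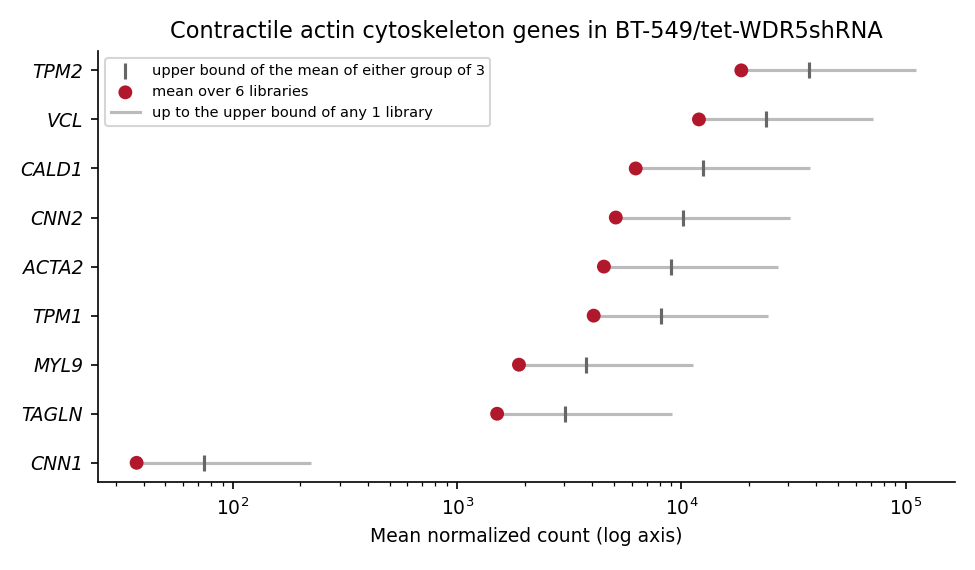
Mean normalized count of each of the 9 genes over all 6 libraries (red point, log axis), with the upper bound that this mean sets for either group of 3 libraries (tick) and for any 1 library (end of the grey line). TPM2 at 18497 and VCL at 11973 were the highest, whereas CNN1 at 37.2 lay below the others by more than an order of magnitude.

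The promoters bear on how the genes were chosen, so they were searched for CArG boxes. Since the choice rests on regulation by SRF, the shares with a box describe that choice and were not tested. The RefSeq promoter sequences (GRCh38.p14) run from 250 bases before to 50 bases after each annotated start. Sequences were held for 7 of the 9 genes, with 12 promoters in all, and those of TAGLN and MYL9 were not analysed here. The box pattern reads the same on both strands, so a search of 1 strand covered both. A box without a mismatch was found for CNN2 only, 1 of these 7 genes, compared with 1.60% of 27305 genes with a promoter sequence. With 1 mismatch allowed among the central A/T positions, ACTA2 and CALD1 also had matches, giving 3 of 7 genes beside 9.88% of all genes. A gene counted if any of its promoters had a box. By promoter, 1 of 12 had a box without a mismatch, beside 1.29% of all promoters. With 1 mismatch allowed it was 3 of 12, beside 8.13%. The matches are given here because they differ in sequence from gene to gene, with the 10 bases of each box in capitals and 10 bases on either side.
CNN2, chr19:1026509-1026538, plus strand: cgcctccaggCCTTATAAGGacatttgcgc
ACTA2, chr10:88952875-88952904, minus strand: gtgctgaggtCCCTATATGGttgtgttaga
ACTA2, chr10:88952825-88952854, minus strand: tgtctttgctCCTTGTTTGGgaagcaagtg
CALD1, chr7:134711463-134711492, plus strand: ccagaggtccCCTAAAGAGGaatacattct

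The CNN2 box began 89 bases before the annotated start. In ACTA2, both imperfect boxes lay in the promoter of the representative transcript, beginning 121 and 71 bases before its start, and the other ACTA2 promoter had none. The ACTA2 promoter is printed whole, since it was the only one with a pair of boxes, which are in capitals (chr10:88952724-88953023, minus strand).
ACTA2: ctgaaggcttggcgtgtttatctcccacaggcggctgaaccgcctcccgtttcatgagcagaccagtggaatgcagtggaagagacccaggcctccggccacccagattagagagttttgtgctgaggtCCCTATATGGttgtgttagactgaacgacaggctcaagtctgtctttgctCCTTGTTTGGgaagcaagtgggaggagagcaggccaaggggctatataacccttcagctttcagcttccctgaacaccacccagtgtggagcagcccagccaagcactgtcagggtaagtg

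The CALD1 match lay 26 bases before the start of 1 of its 4 RefSeq promoters. This start is upstream of the CALD1 gene as GENCODE 44 places it (chromosome 7, 134744252 to 134970729). No box of either kind was found in these windows of CNN1, TPM1, TPM2 or VCL, which says only that the letters are not in these 300 bases. Promoter composition varied among the genes. The GC content was 78.3% for TPM1 and 77.0% for CNN2, but 55.0% for the ACTA2 promoter printed above and 37.0% for the lowest of the CALD1 promoters. The median over the 12 promoters was 58.2%, close to the 58.7% of all 35116 promoters. The letters TATAAA, on either strand, were found in a promoter of CALD1 only (11.5% of all promoters hold them).

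ACTA2 encodes smooth muscle alpha-actin, the actin isoform that marks smooth muscle and myofibroblasts. It lies on the minus strand of chromosome 10 from 88935074 to 88991339 (GRCh38, GENCODE 44), and its representative transcript has 9 exons and 1349 bases. Its mean normalized count was 4512, at the 90.6 percentile of the 13548 genes whose mean was 10 or more. Per kilobase of that transcript, the level was 3345, at the 96.2 percentile. Among the 6 actin genes, ACTA2 held 2.47% of the summed level per kilobase, or 1.64% with the longest transcripts and 1.41% with merged exons. The cytoplasmic actins ACTB and ACTG1, which build the filaments of all cells, held 74.8% and 22.8%.

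The other 3 muscle actins were near 0. The mean normalized count was 2.09 for the skeletal ACTA1, 0.958 for the cardiac ACTC1 and 3.35 for the smooth muscle gamma-actin ACTG2. No library can have exceeded a normalized count of 12.5, 5.75 or 20.1 for these genes. ACTA2 thereby made up 99.9% of the muscle actin level per kilobase. In contrast to ACTA2, ACTA1, ACTC1 and ACTG2 each had a CArG box without a mismatch in a RefSeq promoter, as did ACTG1. No promoter sequence was held for ACTB, so that gene was not searched.

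The actin coding sequences are alike, but none of the 1300 windows of 50 bases in the ACTA2 transcript occurred in a transcript of another GENCODE gene. For ACTB, 10.9% of the windows did. Overlap on the genome is a separate matter, since the ACTA2 locus extends over exons of FAS on the opposite strand, a gene with a mean normalized count of 1566. The libraries were stranded, but whether the counting used strand is not given in the sources used here.

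TAGLN encodes transgelin (SM22-alpha), an actin-bundling protein and an early marker of smooth muscle. It lies on chromosome 11 from 117199370 to 117207464 on the plus strand. Its mean normalized count was 1507 (69.7 percentile). The level per kilobase depended on the transcript, since the representative one has 3786 bases and the median coding one 1227. It was 398 with the former and 1228 with the latter, a choice of length that was added after the values were seen. Of the windows of 50 bases in the representative transcript, 65.5% occurred in the transcript of an unnamed gene model on the same strand (ENSG00000280143). The reads of this part could be split, and the level of TAGLN is uncertain to that extent. Its exons also overlap those of PCSK7 on the opposite strand (989). Compared with its paralog TAGLN2, a transgelin of many cell types with a mean normalized count of 12395, TAGLN was the minor form, at 4.23% of the transgelin level per kilobase. The neuronal TAGLN3 was near 0 (0.288).

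CNN1 and CNN2 encode calponins, which bind actin and restrain the myosin ATPase. CNN1 is the smooth muscle form, whereas CNN2 and CNN3 are found in many cell types. CNN1, on chromosome 19 from 11538767 to 11550323, was the lowest of the 9 genes. Its mean normalized count of 37.2 placed it at the 11.4 percentile, and the mean of neither the vehicle nor the DOX group can have exceeded 74.4. CNN2, on the same chromosome from 1026586 to 1039068, had a mean normalized count of 5097 (92.1 percentile). Its level per kilobase of 2372 was 95.6 times that of CNN1 (24.8). CNN3 was higher still, with a level per kilobase of 7109. Of the calponin level per kilobase, CNN1 held 0.261%, CNN2 25.0% and CNN3 74.8%. The calponins shared almost no sequence at this window size, with 0.238% of the CNN2 windows and none of the CNN1 or CNN3 windows in another gene.

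**Figure D2:**
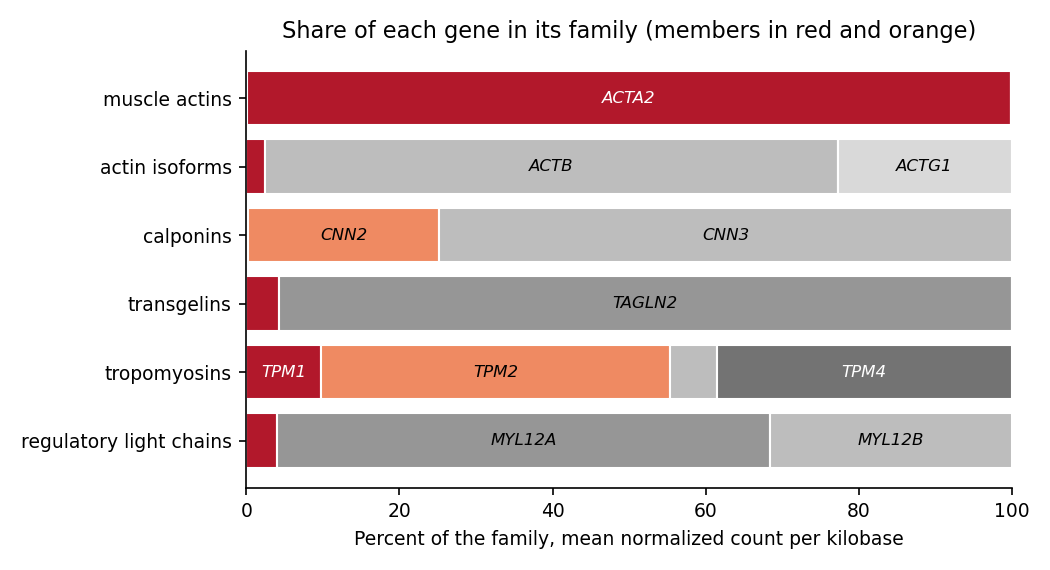
Share of each gene in the level of its family, as percent of the summed mean normalized count per kilobase of the representative transcript (horizontal axis). Genes of the 9 are in red and orange and their paralogs in grey, and CALD1 and VCL are not shown. ACTA2 made up 99.9% of the muscle actins but 2.47% of all actins, whereas TPM2 held 45.6% of the tropomyosins.

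TPM1 and TPM2 encode tropomyosins, coiled-coil proteins that lie end to end along actin and control access of myosin. TPM2, on chromosome 9 from 35681992 to 35690056 on the minus strand, was the highest of the 9 genes at 18497 (98.9 percentile). Its level per kilobase of 15544 was at the 99.5 percentile. TPM1, on chromosome 15 from 63042620 to 63071915, had a mean normalized count of 4062 and a level per kilobase of 3338. TPM2 was thus 4.66 times TPM1 per kilobase, a ratio that was 11.4 with the longest transcripts and 21.0 with merged exons. The genes TPM3 and TPM4 have broad expression, and their mean normalized counts were 14625 and 32500. Per kilobase, TPM2 and TPM4 together made up most of the family, at 45.6% and 38.5%, beside 9.79% for TPM1 and 6.07% for TPM3. The order of the last pair turned with the longest transcripts (4.79% and 9.65%), with merged exons (2.85% and 9.99%) and without division by length (5.83% and 21.0%). With the median coding transcript, a length added after the values were seen, TPM1 was at 3137 per kilobase and TPM3 at 12342. At that length TPM3 was near TPM4 at 13092, and TPM2 was at 16091. Without division by length, TPM4 was the highest at 46.6% of the family and TPM2 held 26.5%. TPM1 has 39 annotated transcripts, between which exons are exchanged by splicing, and these isoforms are not separated in values per gene. No window of the TPM1 or TPM2 transcript occurred in another gene, but 23.5% of those of TPM4 did, mostly in its pseudogene TPM4P2.

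CALD1 encodes caldesmon, which binds actin, tropomyosin and myosin and inhibits contraction. Its mean normalized count was 6254 (94.0 percentile), and its level per kilobase was 1248. The smooth muscle form of caldesmon and the form of other cells come from the same gene by splicing, so that the value does not tell them apart. MYL9 encodes a regulatory light chain of smooth muscle and nonmuscle myosin II, whose phosphorylation starts contraction. It lies on chromosome 20 from 36541497 to 36551447, with a mean normalized count of 1886 (74.8 percentile) and a level per kilobase of 677. The related light chains MYL12A and MYL12B were higher, at 10816 and 5302 per kilobase, and MYL9 held 4.03% of the summed level of the 3 genes.

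VCL encodes vinculin, which links integrin-bound talin to actin and is present in most adherent cells. It lies on chromosome 10 from 73995193 to 74121363, and its representative transcript has 22 exons and 5497 bases. Its mean normalized count of 11973 was the second highest of the 9 genes (97.7 percentile). Divided by this length, its level per kilobase was 2178, at place 5 of the 9 genes. Its exons overlap those of AP3M1 on the opposite strand, which had a mean normalized count of 2963.

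The order of the 9 genes per kilobase was TPM2, ACTA2, TPM1, CNN2, VCL, CALD1, MYL9, TAGLN and CNN1. ACTA2 at 3345 and TPM1 at 3338 were almost equal, as were CNN2 at 2372 and VCL at 2178, and without a spread between libraries none of these neighbours can be ranked with certainty. TPM2 stayed the first and CNN1 the last with each of 4 choices of length. TAGLN and MYL9 moved between places 7 and 8 and between 5 and 8, respectively. TPM1 moved from place 3 to 7, since its merged exons measure 14700 bases and its representative transcript 1217.

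**Figure D3:**
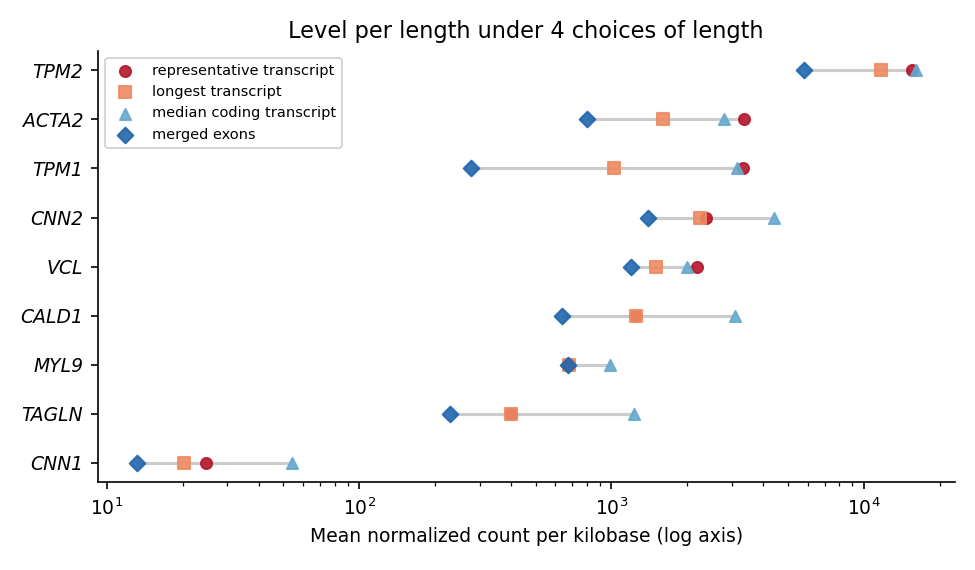
Mean normalized count per kilobase (log axis) of the 9 genes, divided by the length of the representative, longest or median coding transcript or of the merged exons. TPM2 lay above all others and CNN1 below all others with each length, whereas the 7 genes between them changed places.

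Genes of late smooth muscle differentiation were mostly low. Of 9 such genes, 2 reached a mean normalized count of 100 (22.2%), compared with 54.6% of all listed genes, and the median was 27.0. The 2 genes were SMTN, which encodes smoothelin, at 992 and SYNM, an intermediate filament gene, at 939. Per kilobase of the representative transcript, SMTN was at 301, TAGLN at 398 and SYNM at 128. The gap between SMTN and TAGLN was wider with the longest transcripts (195 and 398) and with merged exons (97.2 and 230). The smooth muscle myosin heavy chain MYH11 was at 4.54, the leiomodin gene LMOD1 at 0.296 and desmin (DES) at 2.62, so that no library can have exceeded 27.3, 1.78 or 15.7. CNN1 is also in this list, and its mean normalized count lay between SYNPO2 at 87.2 and MYOCD at 27.0. Per kilobase, however, CNN1 at 24.8 was above both SYNPO2 at 12.0 and MYOCD at 3.16. MYOCD encodes myocardin, the SRF cofactor of cardiac and smooth muscle, and the mean of either group can be at most 54.1.

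**Figure D4:**
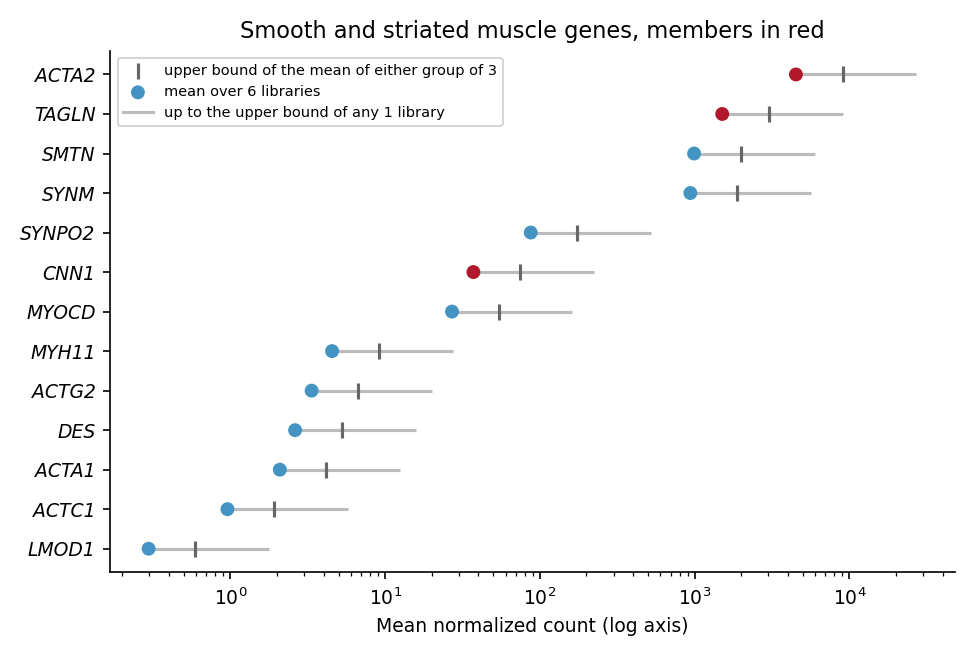
Mean normalized count (log axis) of genes of smooth and striated muscle, with upper bounds for either group of 3 libraries (tick) and any 1 library (end of line), and CNN1, TAGLN and ACTA2 in red. ACTA2 at 4512 and TAGLN at 1507 were the highest of these genes, whereas MYH11, ACTG2, DES, ACTA1, ACTC1 and LMOD1 were below 5.

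The regulators that the choice of genes refers to were present. SRF had a mean normalized count of 1725. The ubiquitous SRF cofactors MRTFA and MRTFB, listed under their older symbols MKL1 and MKL2, had 1384 and 1266. RHOA, the GTPase that drives actin assembly upstream of MRTF, had 17851. Of this list of 5 genes, MYOCD alone was below 100, a level that 54.6% of all listed genes reached. Perfect CArG boxes were found in the promoters of 12 of 42 other genes of the lists with a promoter sequence, SRF itself among them, beside the 1.60% of all genes. Since the lists were chosen as contractile and SRF pathway genes, this share describes that choice and was not tested.

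Other parts of the contractile machinery were also at high levels. Of 13 genes of myosin II, its kinases and its phosphatase with a value, MYL9 left aside, 12 reached a mean normalized count of 100. The gene below it was MYH11, and 54.6% of all listed genes reached this level. The nonmuscle heavy chain MYH9 was at 34405 and MYH10 at 3853, and MYH14 was not found among the listed genes. The kinases ROCK1 and ROCK2 were at 4088 and 2542. The myosin light chain kinase gene MYLK was lower at 190 (27.2 percentile), or 18.8 per kilobase (12.6 percentile). The level per kilobase was 40.5 with the median coding transcript and 6.03 with merged exons. Of 13 genes of focal adhesions and actin crosslinking other than VCL, 12 were at or above 100, again beside 54.6% of all listed genes. Talin 1 (TLN1), which binds vinculin, was at 13363, filamin A (FLNA) at 69350 and the actinins ACTN1 and ACTN4 at 13059 and 18348. The muscle filamin FLNC was the exception at 28.5.

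The markers of the line were those of a mesenchymal cell. The 5 mesenchymal markers lay between 4093 for CDH2 and 47782 for VIM. Of 6 epithelial markers only KRT18 reached 100, at 435, and EPCAM was at 1.30. The receptors ESR1 and PGR were at 0.790 and 0.801, whereas ERBB2 was at 1221. The endothelial markers PECAM1, CDH5 and VWF were below 3. Of the leukocyte markers, PTPRC was at 44.7 and CD68, which many cells with lysosomes express, at 1813. CD3E was not found among the listed genes. WDR5, the targeted gene, had a mean normalized count of 1143, and a mean over both groups does not check the labels.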

How the data were processed

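RNA-seq was analysed for 3 vehicle-treated and 3 DOX-treated cultures of BT-549/tet-WDR5shRNA cells, grouped by sample title. Total RNA of triplicate cultures was made into stranded mRNA libraries, and the authors aligned the reads to GRCh38 with STAR and normalized gene counts with DESeq2. The labels name a column kit for the RNA and the methods name Trizol. The counter, its annotation and any filter on low counts are not given in the sources used here. The deposited table holds, per gene symbol, the mean normalized count over all 6 libraries, a signal value computed by the authors. Its other columns hold the authors' comparison of DOX with vehicle (log2 fold change, standard error, statistic, p-value and adjusted p-value), and these were not used here. The design set a count test for values of single libraries and no test otherwise, and the second case applied.

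The members and gene lists were chosen with earlier results of these data known. Genes named were the 9 members, the genes of 7 lists of the contractile machinery, cell type markers and WDR5. Levels between genes were compared per kilobase of the Ensembl canonical transcript of GENCODE 44 (GRCh38). Of 19792 symbols, 17729 matched directly, 594 matched by a synonym and 1469 had no match. Percentiles are among the 13548 genes with a mean of at least 10 or, per kilobase, the 13024 of them with a length. Windows of 50 bases of the canonical transcript were matched exactly to all transcripts of other genes. CArG boxes are CC, 6 bases of A or T, and GG, and the search was tested on simulated sequences. Alternatives were other lengths, other minimum means and a mismatch in the box. Computation used Python 3.11.15, numpy 2.4.6, pandas 2.3.3 and matplotlib 3.10.9.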

Additional observations from a re-analysis of the deposited data

How the results depend on the processing

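No paired analysis was possible because the value analysed is a mean over all 6 libraries, and for the same reason another normalization, a filter on counts of single libraries and leaving out a replicate were not run. Values with no error were taken as moved when they changed by more than 1.5 times. The 8 members at or above a mean normalized count of 100 were 9 at a minimum of 10 and 8 at a minimum of 50 or 500. The 2 genes of late smooth muscle differentiation at a minimum of 100 became 5 (55.6%) at a minimum of 10. Of all listed genes, 68.5% reached a minimum of 10, 58.9% a minimum of 50 and 38.7% a minimum of 500. The single member with a CArG box became 3 with 1 mismatch allowed. With the longest transcript, the level per kilobase moved from 3345 to 1595 for ACTA2 and from 3338 to 1027 for TPM1, and their family shares from 2.47% to 1.64% and from 9.79% to 4.79%. It moved for 8 of the 9 genes with merged exons (all but MYL9) and for 4 with the median coding transcript, a length chosen after seeing the data, and the percentile of CNN1 rose from 11.4 to 39.4 when all listed genes were ranked. TAGLN held 4.23% of the transgelins per kilobase but 10.8% without division by length, and MYL9 4.03% and 10.2% of the regulatory light chains.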
